A study of Mus with 14 samples.

Results

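Early basophil-mast progenitors were described here as single bone marrow cells that carried transcripts of the IgE receptor and of Gata2 but almost none of the later basophil protease Mcpt8. Cells entered with 1000 or more unique transcript counts (UMIs), 500 or more genes and less than 10% of UMIs from mitochondrial genes. Members were chosen by their measured UMIs: at least 1 UMI each of Ms4a2, Fcer1a and Gata2, at most 2 UMIs of Mcpt8, at most 2 of Pf4 (a platelet lineage chemokine) and 0 of F13a1 (a monocyte lineage gene). These criteria were met by 1156 of 70038 kept cells (1.65%) in 14 libraries. Because measured values chose the cells, their contrast with other cells is a description without tests, and tests are used only between genotypes.

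Each library held Lin-Kit+CD45.2+ bone marrow cells, which lack mature lineage markers and carry the stem cell factor receptor Kit, from 1 mouse. The mice were aged CD45.1+ animals that had been irradiated and had received marrow as a second transplant, and they were killed 20 weeks later. The labels name the genotypes of the transplanted CD45.2+ cells as MxCre (3 mice), Dnmt3a (4 mice), Dnmt3a;Tnfr1KO (3 mice) and Dnmt3a;Tnfr2KO (4 mice). All had gone through a primary transplant in competition with CD45.1+ marrow and 1 injection of poly(I:C), which switches on the interferon-responsive Mx1-Cre recombinase. MxCre mice served as controls, Dnmt3a encodes a DNA methyltransferase often mutated in clonal hematopoiesis, and Tnfr1 and Tnfr2 are the 2 receptors for tumor necrosis factor. The labels do not say which primary recipient supplied which mouse, so some mice of 1 genotype may descend from the same donor, and p-values then measure only the spread between these mice.

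The high-affinity IgE receptor consists of an alpha chain that binds IgE (Fcer1a), a beta chain that amplifies the signal (Ms4a2) and a gamma chain that carries the signal inward (Fcer1g). When antigen cross-links it on basophils and mast cells, the kinases Lyn and Syk and the adaptor Lat start a cascade that ends in release of granules with histamine, proteases and lipid mediators. GATA2 is the transcription factor on which both lineages depend, and both are thought to branch from Gata2-expressing progenitors of the marrow before basophils take up Mcpt8 and mast cells leave for tissues.

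Depth and library composition set the limits of what can be seen in so rare a population. Libraries held 26 to 217 member cells with 611683 to 3365937 UMIs in sum, and the median member had 15657 UMIs and 3774 genes. Replicate 1 of Dnmt3a, with the fewest members, had 5138 of 7257 barcodes under the UMI minimum. No barcode was shared between members of different libraries, whereas 1195 kept cells shared a barcode with a cell of another library. A doublet caller marked 40 members (3.46%) against 3143 of all kept cells (4.49%). The libraries also fell into sets that the labels do not explain. Over all kept cells, the replication-dependent histone gene Hist1h2ap was at 506 to 2086 counts per 1000000 UMIs (CPM) in 8 libraries, which were all MxCre and Tnfr1KO-labelled libraries and Tnfr2KO replicates 1 and 2. It was at 55.7 to 105 CPM in the other 6, which were all Dnmt3a libraries and Tnfr2KO replicates 3 and 4. The division was drawn at the largest gap in these Hist1h2ap levels on a log scale. The small ribosomal protein gene Rps29 followed the same division, at 7241 to 10214 CPM against 2681 to 5284 CPM. In the comparisons of Dnmt3a with MxCre and of Dnmt3a;Tnfr1KO with Dnmt3a, genotype and this division cannot be told apart.

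**Figure D1:**
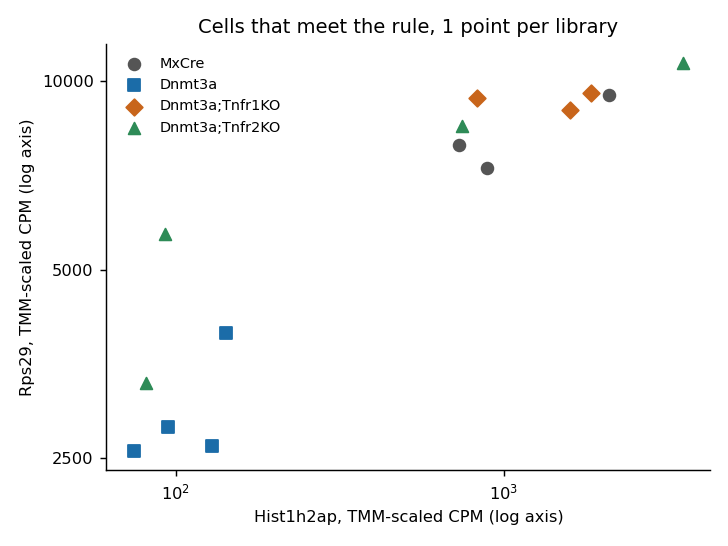
Level of the ribosomal protein gene Rps29 (vertical, CPM with TMM scaling, log axis) against the histone gene Hist1h2ap (horizontal, same unit, log axis) in the members, with 1 point per library and 1 symbol per genotype. The 4 Dnmt3a libraries and 2 of the 4 Dnmt3a;Tnfr2KO libraries sit at the lower left, and the other 8 libraries at the upper right.

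The 3 receptor and transcription factor genes of the rule were carried by a few UMIs per cell. The median member had 5 UMIs of Ms4a2, 3 of Fcer1a and 5 of Gata2. Single UMIs met the rule in 179 members for Ms4a2 (15.5%), in 339 for Fcer1a (29.3%) and in 89 for Gata2 (7.70%). Cells just outside the thresholds showed how gradual the edges are. The 730 cells that lacked only an Ms4a2 UMI had 253 CPM of Cpa3 (mast cell carboxypeptidase) and 79.3 CPM of Slc18a2, the vesicular monoamine transporter that loads histamine and serotonin into granules. The 179 members with a single Ms4a2 UMI had 630 CPM of Cpa3 and 91.8 CPM of Slc18a2. The 46 cells with exactly 3 Mcpt8 UMIs had 1167 CPM of Cpa3, close to the 1117 CPM of the members with 2. Prss34, a basophil tryptase, was at 115 CPM in the former and 30.5 CPM in the latter. Of the members, 926 had no Mcpt8 UMI and 162 had 1.

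The 2 defining markers that the rule did not use were high in members. Cpa3 had a median over libraries of 626 CPM in members (lowest 347, highest 1017), against 62.8 CPM in all other kept cells, and Slc18a2 had 115 CPM (lowest 77.5, highest 173) against 11.7 CPM. In each of the 14 libraries both were higher in members than in the remaining cells. Because 3' libraries tag each transcript once, CPM values of different genes can be compared without a correction for length. At least 1 Cpa3 UMI was found in 91.5% of members and Slc18a2 in 76.0%. In cells with 10 or more Elane UMIs and no Ms4a2 UMI, granulocyte progenitors that should lack these genes, the shares were 21.1% and 5.66%, although such cells were deeper (library medians centred on 31906 UMIs, against 16713 in members). After each cell was thinned to 5000 UMIs the shares were 77.7% and 42.2% in members and 10.6% and 1.25% in the Elane-rich cells.

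To place the members among their neighbours, levels are given beside 3 other sets of cells from the same libraries. These are 14933 Gata2-positive cells without Ms4a2 or Fcer1a UMIs, 402 cells with Ms4a2, Fcer1a and at least 3 Mcpt8 UMIs, and the 30405 Elane-rich cells. All levels in this comparison are medians of CPM over the 14 libraries. Cpa3 and Slc18a2 were not particular to members. At least 1 UMI was found in 99.8% and 80.1% of the Mcpt8-rich cells, and in 37.2% and 35.7% of the Gata2-positive cells. After thinning the shares were 96.9% and 48.3% of Mcpt8-rich cells and 23.2% and 16.8% of Gata2-positive cells, so both were most frequent in Mcpt8-rich cells.

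Genes of the receptor complex differed in how far they had come up. The gamma chain gene Fcer1g, shared with other Fc receptors, stood at 182 CPM in members, 55.8 CPM in Gata2-positive cells, 466 CPM in Mcpt8-rich cells and 236 CPM in Elane-rich cells. It was therefore higher in members than in Gata2-positive cells of all 14 libraries but not higher than in other progenitors at large (183 CPM). The adaptor gene Lat2 was at 92.5 CPM in members and 43.3 CPM in Gata2-positive cells, and Lat was at 40.6 and 22.4 CPM. Kinases were flatter across the sets: Lyn was at 45.9 and 34.4 CPM, Syk at 57.9 and 46.9 CPM, and the Tec family kinase gene Btk at 63.8 and 61.8 CPM. Plcg2, a phospholipase of the same cascade, was at 23.9 CPM in members and 30.1 CPM in Gata2-positive cells.

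Among transcription factors, the LIM-domain gene Lmo4 was at 741 CPM in members against 79.6 CPM in Gata2-positive cells and 1031 CPM in Mcpt8-rich cells. The Ikaros family gene Ikzf2 stood at 289, 78.0 and 306 CPM in the same order, and Runx1 at 211, 91.8 and 249 CPM. Gata1, the factor of erythroid, megakaryocyte and mast lineages, was at 79.1 CPM in members, 42.6 CPM in Gata2-positive cells and 49.0 CPM in Mcpt8-rich cells. Its partner Zfpm1 was at 103, 92.5 and 19.5 CPM. Cebpa, which is known to steer progenitors of this branch towards basophils, went the other way at 58.2, 32.7 and 126 CPM, and Mitf, a mast cell factor, was low everywhere at 4.36, 2.06 and 13.5 CPM. Factors of other myeloid lineages differed. Irf8 was at 2.73 CPM against 111 CPM in all other kept cells, Gfi1 at 2.76 against 34.7 CPM and Cebpe at 6.27 against 77.3 CPM. Spi1 (124 against 181 CPM) and Cebpb (44.8 against 79.6 CPM) were closer. Of the 3 Gata2-expressing sets, members had the highest level of Gata1, a level of Zfpm1 near that of Gata2-positive cells, and levels of Ikzf2 and Runx1 near those of Mcpt8-rich cells.

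Granule and mediator genes separated enzymes that were already present from those of mature basophils. Hdc, which makes histamine, was at 131 CPM in members, 25.8 CPM in Gata2-positive cells and 218 CPM in Mcpt8-rich cells. The granule proteoglycan core gene Srgn was at 2138 CPM against 1172 and 3161 CPM. The 5-lipoxygenase gene Alox5, which starts leukotriene synthesis, was at 35.5 CPM against 2.51 and 108 CPM. Of the 10 genes in the lipid mediator list, only 5 had a higher median in members than in Gata2-positive cells, and 3 than in Mcpt8-rich cells. Prss34 was at 3.47 CPM in members and 2288 CPM in Mcpt8-rich cells, and Prg2, an eosinophil granule major basic protein gene, at 0.456 and 657 CPM. Only part of the Mcpt8-rich cells carried these transcripts, with a Prss34 UMI in 46.0% and a Prg2 UMI in 12.4%. In members the shares were 3.89% and 1.12%. The primary granule protease gene Elane was at 159 CPM in members, the lowest of the sets, beside 988 CPM in Gata2-positive cells and 6968 CPM in the cells chosen for it.

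The list of cytokine and growth factor receptors held 26 genes, among them at least 1 ligand gene, Il33, at 0 in members. Of the 26, 13 had a higher median in members than in Gata2-positive cells and 7 a higher one than in Mcpt8-rich cells. In members, 12 were under 5 CPM. Il1rl1, the receptor for the alarmin IL-33, was at 54.8 CPM in members, 9.48 CPM in Gata2-positive cells and 75.4 CPM in Mcpt8-rich cells. Il3ra and the shared beta chain gene Csf2rb, which bind the basophil growth factor IL-3, were at 58.4 against 23.0 and 94.7 CPM and at 62.8 against 19.4 and 111 CPM. In members and Gata2-positive cells, the IL-3 specific beta chain gene Csf2rb2 was at 14.2 against 1.28 CPM. Crlf2, the receptor chain for thymic stromal lymphopoietin, was at 137 against 94.2 CPM. Kit, on which the cells had been sorted, was level across the sets at 159, 157 and 161 CPM, and after thinning it was found in 47.7% of members, 53.7% of Gata2-positive cells and 37.4% of Mcpt8-rich cells. The integrin genes Itgb7 and Itga4, which form the receptor that brings mast cell progenitors into the gut, were at 37.7 against 9.92 CPM and 223 against 136 CPM, and Itga2b at 110 against 32.9 CPM. Of the 22 genes in the list of surface and adhesion molecules, only 11 had a higher median in members than in Gata2-positive cells. In 4 of the 22 the median was higher than in Mcpt8-rich cells. Transcripts of secreted cytokines were rare, with Il4 at 7.04 CPM and Il6 at 8.62 CPM.

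Outside the lists, the 20 genes with the highest fold over all other kept cells included Csrp3, a muscle LIM protein gene, at 328 CPM in members against 11.2 CPM in the rest. Apoe, which encodes a lipid transport protein, was at 1655 against 226 CPM, and the interferon-induced membrane protein gene Ifitm1 at 1052 against 158 CPM. In Gata2-positive cells, the nearer neighbours, Csrp3 was at 27.6 CPM, Apoe at 685 CPM and Ifitm1 at 320 CPM, and in Mcpt8-rich cells they were at 391, 757 and 671 CPM. Apoe was found in 97.3% of members and 81.4% of Gata2-positive cells, and Ifitm1 in 85.1% and 77.8%. The cell cycle lists differed by phase. Of 52 G2 and M phase genes, 46 had a higher median in members than in all other kept cells, 50 than in Gata2-positive cells and 30 than in Mcpt8-rich cells. Of 42 S phase genes these counts were 15, 11 and 39. Mki67 was at 316 CPM in members, 239 CPM in Gata2-positive cells and 222 CPM in Mcpt8-rich cells, and after thinning it was found in 52.4%, 42.6% and 51.4% of cells.

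**Figure D2:**
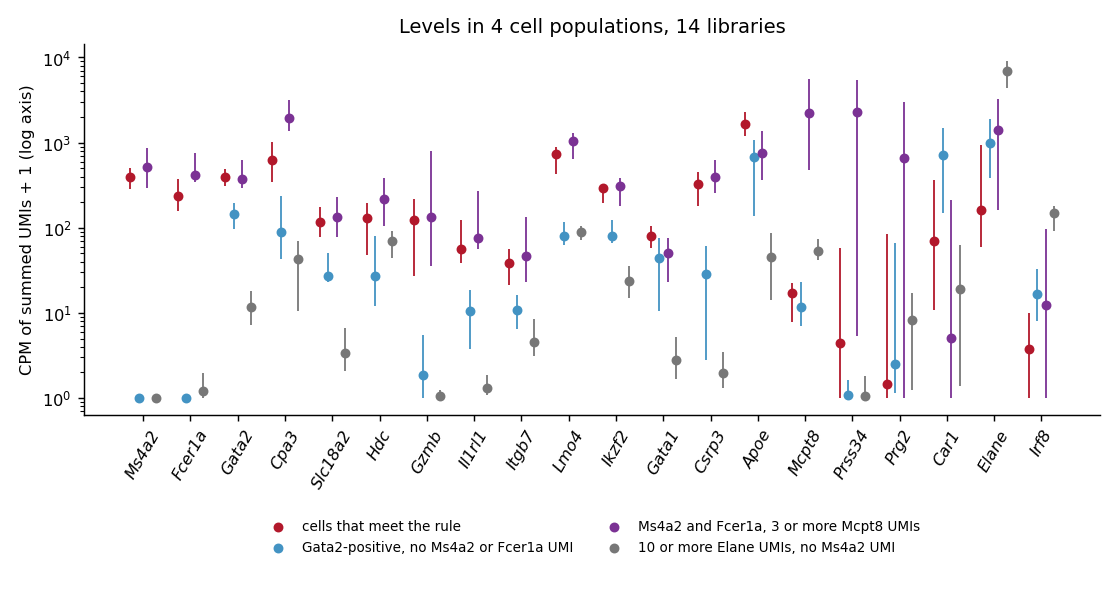
Levels of 20 genes (CPM of UMIs summed per library, plus 1, log axis) in the members and 3 other sets of cells; points are medians over 14 libraries and bars run from the lowest to the highest library. Members lie near Mcpt8-rich cells in Lmo4, Ikzf2 and Csrp3 and far below them in Prss34 and Prg2; Ms4a2, Fcer1a, Gata2, Mcpt8 and Elane were used to choose cells.

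Markers of other lineages were checked as whole lists. In members, 14 of 15 B lineage, 13 of 15 T, NK and innate lymphoid, 10 of 13 dendritic, 10 of 13 monocyte (without F13a1, which the rule fixed at 0) and 9 of 11 eosinophil genes had medians under 5 CPM, and Siglech, Cd209a, Cd22, Cd3g and Trac were at 0 in every library. Neutrophil progenitor genes were present: 5 of 15 were under 5 CPM, the list's summed level ran from 1298 to 5795 CPM over 13 libraries and was 13133 CPM in MxCre replicate 2, where 1 cell held nearly all S100a8 UMIs, and Mpo and Prtn3 were found in 82.5% and 88.2% of members. Of the 15 genes, 1 had a higher median in members than in all other kept cells. Of the megakaryocyte genes other than Pf4, which the rule limited, 8 of 15 were under 5 CPM. Erythroid genes were present as well, with 5 of 18 under 5 CPM. Klf1 was at 50.5 CPM in members and 52.3 CPM in Gata2-positive cells, and Car1, an early erythroid carbonic anhydrase, at 69.5 and 721 CPM. Car1 was found in 16.8% of the members with a Cpa3 UMI and 37.8% of those without one, at median depths of 15915 and 12596.5 UMIs.

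A small set of members carried the genes of mature mast cells, and it was noticed only after its values were seen. Cma1, the mast cell chymase, had at least 1 UMI in 65 members (5.62%), with a median of 22 and up to 248 UMIs per cell. Their median depth was 4467 UMIs, and 38 of them were under 5000. In MxCre and Dnmt3a mice, 13 of 17 and 13 of 23 Cma1 cells had 10 or more Cma1 UMIs. In Tnfr1KO-labelled and Tnfr2KO mice 8 of 10 and 6 of 15 did, so the others carried few. Summed over all 65 cells, Cma1 was at 6852 CPM, the chymase Mcpt4 at 3759 CPM and the tryptase Tpsb2 at 2424 CPM. In the 1024 members with neither Cma1 nor Gzmb these genes were at 0, 0.111 and 0.166 CPM. Cpa3 was at 5167 against 520 CPM, Fcer1g at 1565 against 137 CPM, Kit at 552 against 136 CPM and Il1rl1 at 337 against 50.2 CPM. Mki67 was lower in the Cma1 cells (112 against 371 CPM), as were Zfpm1 (13.1 against 105 CPM) and Hist1h2ap (72.2 against 898 CPM). Cma1 was not confined to members, and at least 1 UMI was found in 14.7% of Mcpt8-rich cells and 0.402% of Gata2-positive cells. Thinning leaves out cells under 5000 UMIs, among them 38 of the 65 Cma1 members. In the cells that remained, the thinned shares with Cma1 were 8.66% and 0.131%, against 1.56% of members.

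Gzmb, a granzyme gene also known from mast cells, was found in 47 of the 65 Cma1 cells (72.3%) and in 6.14% of the other members. The 67 members with Gzmb but no Cma1 UMI had a median depth of 7476 UMIs, with Cpa3 at 1262 CPM, Fcer1g at 576 CPM and Mcpt4 at 0 CPM. Cpa3 and Fcer1g thus lay between the levels of the other sets, whereas Hdc did not, at 66.8 CPM beside 210 CPM in Cma1 cells and 133 CPM in members with neither gene. Cma1 cells were unevenly spread over mice. They made up 10.6%, 2.50% and 1.54% of members in MxCre mice, 3.85%, 2.44%, 11.2% and 17.8% in Dnmt3a mice, 5.45%, 9.38% and 2.27% in Tnfr1KO-labelled mice and 0.943%, 2.83%, 3.37% and 3.69% in Tnfr2KO mice. The groups overlapped, and within 3 of the 4 genotypes 1 mouse differed from another by more than 4-fold.

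**Figure D3:**
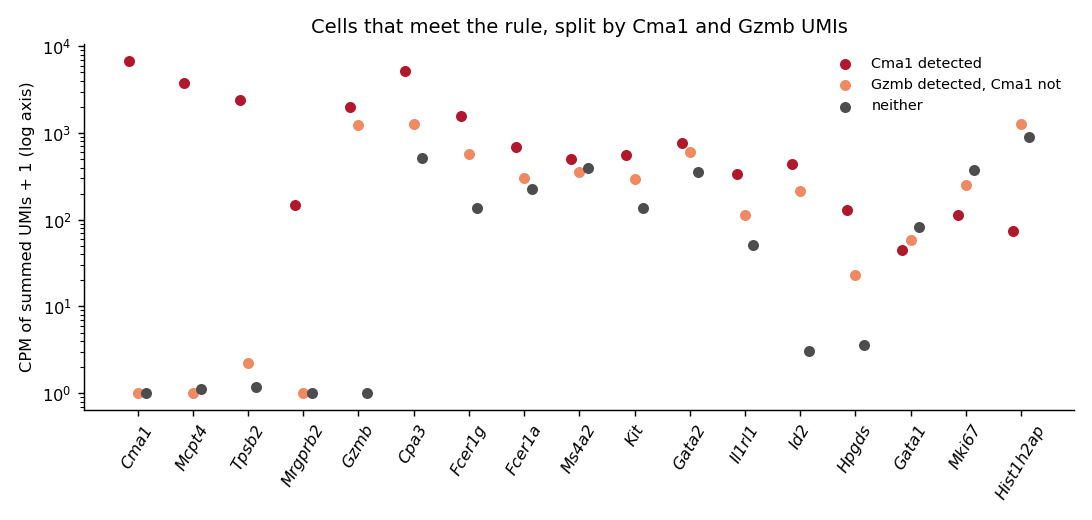
Levels of 17 genes (CPM of summed UMIs plus 1, log axis) in members with a Cma1 UMI (65 cells), with Gzmb but no Cma1 UMI (67 cells) and with neither (1024 cells), summed over all libraries. Mcpt4, Tpsb2 and Mrgprb2 are near 0 outside the first set; Cma1 and Gzmb were used to define the sets.

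The first comparison between genotypes was how many such progenitors each mouse had. Members made up 2.30%, 1.39% and 1.41% of kept cells in the MxCre mice and 1.33%, 1.49%, 2.02% and 0.792% in the Dnmt3a mice. They made up 0.848%, 1.73% and 1.39% in the Tnfr1KO-labelled mice and 1.37%, 1.80%, 1.38% and 3.19% in the Tnfr2KO mice. Every pair of groups overlapped, and the Tnfr2KO mean rested on 1 mouse that was well above the rest. Means were 1.70% ± 0.519 (SD, n = 3), 1.41% ± 0.505 (SD, n = 4), 1.32% ± 0.446 (SD, n = 3) and 1.93% ± 0.858 (SD, n = 4). The difference of Dnmt3a from MxCre was -0.292 percentage points (two-sided exact permutation p = 0.429, adjusted over 4 comparisons 0.571). Dnmt3a;Tnfr1KO differed from Dnmt3a by -0.0847 points (exact p = 0.8, adjusted 0.8), Dnmt3a;Tnfr2KO from Dnmt3a by 0.526 points (exact p = 0.429, adjusted 0.571) and from Dnmt3a;Tnfr1KO by 0.611 points (exact p = 0.371, adjusted 0.571). The smallest p that 3 against 4 mice allow is 0.0286. The rule counts UMIs and so depends on depth, and library medians of the members ran from 9183 to 25014 UMIs. With every cell thinned to 5000 UMIs the means were 0.900%, 0.711%, 0.774% and 1.04%, with 660, 2290, 2242 and 1684 shallower cells left out, and the order of Dnmt3a and Dnmt3a;Tnfr1KO turned.

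**Figure D4:**
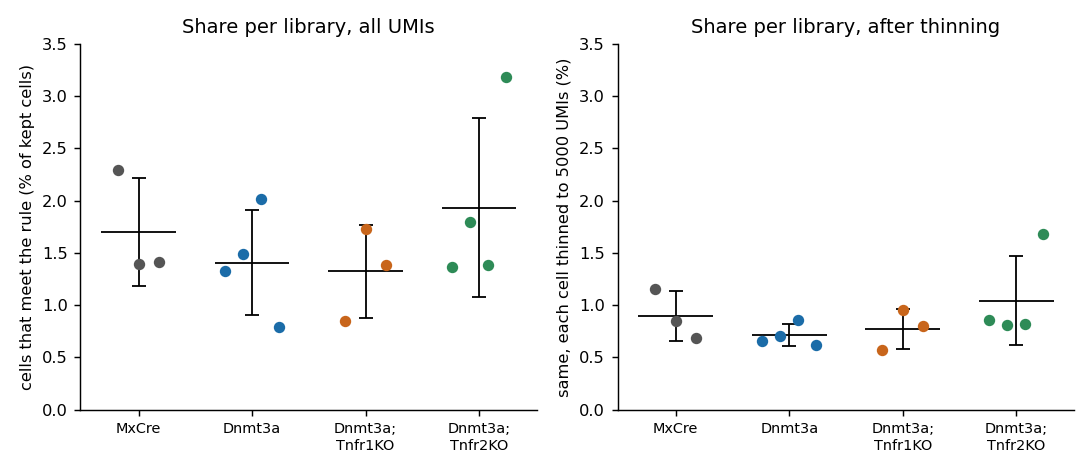
Share of kept cells that met the rule, in percent, with 1 point per mouse (library), the group mean as a line and the SD as bars, from all UMIs (left) and with each cell thinned to 5000 UMIs (right). All 4 genotypes overlap in both panels, and the highest point is the fourth Dnmt3a;Tnfr2KO mouse.

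Gene levels were then compared over mice, with member UMIs summed per library. Values below are CPM scaled by trimmed mean of M values (TMM), folds are log2 values from edgeR's quasi-likelihood test, and a gene was called at a Benjamini-Hochberg adjusted p below 0.05 over all 8601 genes tested. Summed values cannot tell a change in every cell from a change in some.

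Among the genes that mark these cells, Gata2, Cpa3 and Slc18a2 had overlapping levels in all genotypes. Gata2, which chose the cells, was at 402, 436 and 369 CPM in MxCre mice and at 394, 413, 382 and 443 CPM in Dnmt3a mice. In Tnfr1KO-labelled mice it was at 427, 407 and 375 CPM and in Tnfr2KO mice at 356, 323, 408 and 361 CPM. Cpa3 was at 732, 661 and 591 CPM, at 297, 443, 688 and 927 CPM, at 657, 923 and 864 CPM and at 614, 512, 522 and 754 CPM in the same order. Cpa3 thus varied more within the Dnmt3a group than between groups, and its log2 fold change there against MxCre was -0.16 (SE 0.25, edgeR adjusted p = 0.879). Slc18a2 averaged 117 ± 16.4 (SD, n = 3), 123 ± 16.98 (SD, n = 4), 120 ± 42.8 (SD, n = 3) and 124 ± 19.7 CPM (SD, n = 4).

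Fcer1a also chose the cells, so its levels are a description without a test. It was at 250, 273 and 279 CPM in MxCre mice, at 146, 189, 172 and 207 CPM in Dnmt3a mice, at 345, 224 and 238 CPM in Tnfr1KO-labelled mice and at 328, 164, 387 and 297 CPM in Tnfr2KO mice. The Dnmt3a values lay below all MxCre and Tnfr1KO-labelled values and overlapped those of Tnfr2KO mice. Since at least 1 UMI was required, low values of this gene are cut off in every group, at a level that depends on depth. Tnfr2KO replicates 3 and 2, with 387 and 164 CPM, had median depths of 9183 and 20389 UMIs per member. The Dnmt3a mouse with 146 CPM had the deepest members (25014 UMIs). Depth did not order all mice: MxCre replicate 1, with 250 CPM, was deeper (18599.5 UMIs) than Dnmt3a replicate 3, with 172 CPM (16253 UMIs). The part of depth in these levels was not tested.

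The targeted genes were read next. Dnmt3a transcripts averaged 26.6 ± 3.88 CPM (SD, n = 3) in MxCre, 25.5 ± 7.20 CPM (SD, n = 4) in Dnmt3a, 20.0 ± 2.59 CPM (SD, n = 3) in Tnfr1KO-labelled and 22.7 ± 3.45 CPM (SD, n = 4) in Tnfr2KO mice. Tnfrsf1a, which encodes TNF receptor 1, was at 38.2, 46.6 and 33.4 CPM in MxCre mice, 18.7, 26.7, 29.6 and 22.8 CPM in Dnmt3a mice, 29.6, 24.7 and 27.7 CPM in Tnfr1KO-labelled mice and 46.3, 29.9, 41.0 and 37.1 CPM in Tnfr2KO mice. It was thus not lower in mice labelled as lacking it than in Dnmt3a mice (log2 fold change 0.11, SE 0.23, edgeR adjusted p = 0.935). Tags at the 3' end can lie outside the deleted part of a gene, so neither gene checks the labels. Tnfrsf1b (TNF receptor 2) and Tnf fell below the filter on low counts. Tnfrsf1b had 29, 29, 17 and 37 UMIs in the 4 groups, or 5.77 to 9.81 CPM over MxCre libraries and 2.77 to 7.90 CPM over Tnfr2KO libraries. Tnf had 17, 26, 7 and 6 UMIs.

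In Dnmt3a against MxCre, 26 of 8601 genes were called (0.302%), 4 of them higher (0.0465%) and 22 lower (0.256%) in Dnmt3a. The higher genes were Mki67 and Aspm, which act in mitosis, the antisense transcript Kcnq1ot1 and Bod1l, which protects replication forks. The lower genes included the short ribosomal protein genes Rps29, Rps28 and Rpl38, the mitochondrial genes Atp5k and Pet100, the checkpoint receptor gene Lag3, and Smim40.

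Mki67, a marker of dividing cells, was at 285, 242 and 236 CPM in MxCre mice and at 963, 390, 439 and 561 CPM in Dnmt3a mice. The groups did not overlap, and the highest Dnmt3a mouse, with 26 members, was far above the others. The log2 fold change was 1.20 (SE 0.24, edgeR adjusted p = 0.0344), and 0.86 without that mouse. The rise was not particular to members. Gata2-positive cells of the same mice had a log2 change of 0.91 (edgeR adjusted p = 0.0459), and the difference between the sets had an adjusted p of 0.597. Over all kept cells Mki67 was at 176, 177 and 202 CPM in MxCre and 625, 263, 282 and 451 CPM in Dnmt3a libraries. Aspm, a spindle pole gene, averaged 96.7 ± 22.7 CPM (SD, n = 4) against 52.9 ± 5.07 CPM (SD, n = 3), with a log2 fold change of 0.87 (SE 0.19, edgeR adjusted p = 0.0488). Of the 52 G2 and M phase genes, all tested, 46 had higher fitted levels in Dnmt3a (88.5%, against 51.4% of all genes tested) and only Mki67 was called. Their median log2 change was 0.28, against 0.01 over all genes tested. The list summed to 12407, 9378, 10874 and 12273 CPM in Dnmt3a and 10515, 7649 and 8132 CPM in MxCre mice. The groups thus overlapped in this sum, with MxCre replicate 1 above Dnmt3a replicate 2. In Dnmt3a;Tnfr1KO and Dnmt3a;Tnfr2KO, each against the same Dnmt3a mice, 10 and 8 of the 52 were higher, against 49.0% and 48.4% of all genes tested. Of 14 erythroid genes tested, 11 had higher fitted levels in Dnmt3a against MxCre, with a median log2 change of 0.69 and 0 called. In each of the other 2 comparisons 1 of 14 was higher, with 0 called. Their summed level was 1357, 646, 642 and 5928 CPM in Dnmt3a and 1200, 538 and 1456 CPM in MxCre mice, so only Dnmt3a replicate 4 was above all MxCre mice. The part of erythroid genes in the change of the mitosis genes was not tested. The 42 S phase genes had a median of -0.03 with 0 called. Leaving out 1 library kept the call of Mki67 in 1 of 7 fits, and its direction in all 7 (highest adjusted p 0.150).

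Lag3 and Smim40 were detected at no more than 2 UMIs per cell. Lag3 was at 13.01, 21.7 and 10.8 CPM in MxCre mice and 1.17, 1.27, 2.04 and 1.69 CPM in Dnmt3a mice, without overlap (log2 fold change -3.03, SE 0.60, edgeR adjusted p = 0.0338). Each of the calls of Lag3 and Smim40 was kept in 2 of 7 fits with a library left out. Smim40 had 69 UMIs in MxCre and 3 in Dnmt3a members, a ratio of 24.4 (95% interval 8.02 to 121 from counting error alone; edgeR adjusted p = 0.0338). In the Tnfr2KO mice, Smim40 was at 0, 0.907, 4.68 and 11.2 CPM. Gm47283, a predicted gene, was at 187, 220 and 185 CPM in MxCre and 60.9, 80.0, 70.8 and 81.2 CPM in Dnmt3a mice (log2 fold change -1.42, SE 0.24, edgeR adjusted p = 0.0274). S100a8, an alarmin of neutrophils, was also called lower, but 1 cell of MxCre replicate 2 held 2290 of that library's 2303 UMIs (99.4%), and without this library the log2 fold change was 0.32.

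The division between libraries followed these calls. Of the 81 ribosomal protein genes tested, 4 were among the 26 called, all lower. When a term for the division was added to the model, a choice made after the data were seen, 4 genes were called (0.0465%): Psma8, Vill, Smim40 and Dkkl1, all lower. Only Smim40 was called both ways. Mki67 then had a log2 change of 1.07 (edgeR adjusted p = 0.884) and Aspm 0.73 (adjusted p = 0.954). All MxCre libraries lie on one side of the division and all Dnmt3a libraries on the other, so this fit rests on the Tnfr2KO libraries, the only genotype on both sides.

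Dnmt3a;Tnfr1KO was set against Dnmt3a to see what loss of TNF receptor 1 adds, and 33 genes were called (0.384%), 27 higher (0.314%) and 6 lower (0.0698%) in the Tnfr1KO-labelled mice. The Dnmt3a libraries serve both in this comparison and in the previous one, so the values are given side by side and their likeness is not read as a result. Rps29, Rps28 and Rpl38 were higher here by log2 values of 1.64, 1.48 and 1.47, and 11 of the 81 ribosomal protein genes were called, all higher. Mki67 averaged 277 ± 58.5 CPM (SD, n = 3) and was lower than in Dnmt3a by a log2 change of -1.09 (SE 0.24, edgeR adjusted p = 0.0480), a call kept in 2 of 7 fits with a library left out. Aspm was at 35.6, 43.8 and 44.3 CPM, below every Dnmt3a mouse (log2 fold change -1.22, SE 0.20, edgeR adjusted p = 0.00411).

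Ckm, the muscle form of creatine kinase, which buffers ATP, gave the clearest difference. It was at 8.54, 4.998 and 18.6 CPM in MxCre mice and 1.17, 12.7, 17.3 and 12.7 CPM in Dnmt3a mice. It was at 111, 105 and 162 CPM in Tnfr1KO-labelled mice and 159, 178, 49.2 and 93.9 CPM in Tnfr2KO mice. Every mouse with a receptor knockout label was above every mouse without one. The log2 fold change was 3.37 (SE 0.42, edgeR adjusted p = 0.000488) for Tnfr1KO-labelled and 3.33 (SE 0.39, edgeR adjusted p = 9.09e-05) for Tnfr2KO mice, both against the same Dnmt3a mice. The rise was spread over cells: a Ckm UMI was found in 61.8%, 73.4% and 79.5% of members in Tnfr1KO-labelled mice and in 3.85% to 24.4% in Dnmt3a mice. Both calls held with any 1 library left out (7 of 7 and 8 of 8 fits). With the division in the model the changes were 2.201 (adjusted p = 0.328) and 2.63 (adjusted p = 0.00109), so only the call in Tnfr2KO mice was kept. In Gata2-positive cells of the same mice the log2 change was 3.51 (edgeR adjusted p = 0.00885) for Tnfr1KO-labelled and 3.32 (adjusted p = 0.00569) for Tnfr2KO mice.

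Other genes of this comparison are given with the limits of each. Pira2, a paired immunoglobulin-like receptor gene, had 27 UMIs in Tnfr1KO-labelled members against 2 in Dnmt3a, a ratio of 23.6 (95% counting interval 5.94 to 205, edgeR adjusted p = 0.00411). The Pira2 call was kept in 6 of 7 fits with a library left out, and its log2 change in Gata2-positive cells was 2.49 (edgeR adjusted p = 0.0415). Pira2 belongs to a family of near-identical copies, so reads may be split among them. Hist2h2ac averaged 16.3 ± 2.11 CPM (SD, n = 3) against 180 ± 121 CPM (SD, n = 4), with a log2 fold change of -3.43 (edgeR adjusted p = 0.00272), while Hist1h2ap was higher by 3.71. Both are histone genes. The Hist2h2ac call was kept in 7 of 7 fits with a library left out. Hist1h2ap was not called in any of the 7 fits with a library left out. Its change was -0.92 when the division was in the model. That division was drawn on Hist1h2ap levels, so this fit cannot test the gene. Lrmda was at 1.48, 2.86 and 5.54 CPM against 7.03, 17.8, 17.8 and 13.5 CPM in Dnmt3a mice (log2 fold change -2.12, edgeR adjusted p = 0.0341). That call was kept in 2 of 7 fits with a library left out. Its log2 change in Gata2-positive cells of the same mice was -2.56 (edgeR adjusted p = 9.34e-07).

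Egr1, an immediate early transcription factor gene induced within minutes of stimulation, was called higher through 1 mouse. It was at 627, 73.3 and 92.7 CPM in Tnfr1KO-labelled mice and at 53.9, 52.1, 70.3 and 50.7 CPM in Dnmt3a mice. In the first mouse Egr1 was found in 44 of 55 members (80.0%). The log2 fold change was 2.17 (SE 0.47, edgeR adjusted p = 0.0413), and 0.52 (adjusted p = 0.608) without this mouse. The summed level of the 25 immediate early genes ran from 1409 to 5216 CPM over the Tnfr1KO-labelled mice against 1739 to 2776 CPM in Dnmt3a mice, and that of 38 NF-kB genes from 763 to 2768 against 662 to 1212 CPM. With the division in the model 2 genes were called (0.0233%), Klk8 and Psma8, both higher and neither among the 33. Aspm then had a log2 change of -1.07 (edgeR adjusted p = 0.787), and Ckm lost its call as given above.

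In Dnmt3a;Tnfr2KO against Dnmt3a, the genotype that lies on both sides of the division, 37 genes were called (0.43%), 30 higher (0.349%) and 7 lower (0.0814%). Besides Ckm, the higher genes were led by the zinc finger gene Zfp990, by Gm47283 and A430005L14Rik, and by the primary granule protease genes Elane and Prtn3. Aspm was again lower, at 49.98, 36.7, 53.8 and 43.1 CPM (log2 fold change -1.10, SE 0.17, edgeR adjusted p = 0.00320), with the call kept in 8 of 8 fits that left out a library. Of the ribosomal protein genes 10 were called, all higher. With the division in the model 8 genes were called (0.093%), and 5 of these were among the 37: Ckm, Pira2, Zfp990, Gm47283 and A430005L14Rik, all higher. Ribosomal protein genes, Elane, Prtn3 and Aspm were not among the 8, although in this fit the log2 change was -1.03 for Aspm (edgeR adjusted p = 0.110), 2.05 for Elane and 1.11 for Prtn3 (adjusted p = 0.258 for both).

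Zfp990 was detected in members of this genotype only. It had 0 UMIs in the members of the other 10 mice and 22.4, 16.3, 50.3 and 34.9 CPM in the Tnfr2KO mice, or 224 UMIs in 164 members (31.7%). This was at least 42.2-fold higher than in Dnmt3a members, taking 3 UMIs in that group as the limit of detection, and at least 24.1-fold higher than in Tnfr1KO-labelled members. The edgeR adjusted p was 0.000254 against Dnmt3a. It was the only gene called against Dnmt3a;Tnfr1KO (1 of 8601, 0.0116%; adjusted p = 0.0150; unadjusted p was below 0.05 for 299 genes). That second call held in 4 of 7 fits with a library left out, and the first in 8 of 8. In Gata2-positive cells of Dnmt3a mice it averaged 0.228 CPM against 26.7 CPM in Tnfr2KO mice. Zfp990 has near-identical zinc finger genes beside it, and counting may split reads among such copies.

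The gene lies at chr4:145510759-145538251 in GRCm38, 0.298 Mb from Tnfrsf1b (chr4:145212368-145246870), and it was asked, after seeing this, how many called genes lay near. Within 12 Mb of Tnfrsf1b were 152 of the 8428 tested genes with a position (1.80%) and 5 of the 31 called genes with one. Besides Zfp990 they were Cenps (chr4:149128349-149137600), which encodes a centromere protein, A430005L14Rik (chr4:153957237-153961925), the pseudouridine synthase-like gene Pusl1 (chr4:155888857-155891858) and C1qtnf12 (chr4:155962312-155966629), which encodes a secreted C1q-like protein. A430005L14Rik was at 81.3, 94.4, 108 and 127 CPM against 30.5, 59.7, 46.4 and 45.7 CPM in Dnmt3a mice, without overlap (log2 fold change 1.18, SE 0.18, edgeR adjusted p = 0.00320). C1qtnf12 was lower, at 16.4, 21.3, 32.8 and 24.3 CPM against 37.5, 57.2, 44.8 and 125 CPM (log2 fold change -1.52, SE 0.32, adjusted p = 0.0294). With a library left out C1qtnf12 stayed called in 5 of 8 fits, Cenps in 3 and A430005L14Rik in 8. Of the genes called in Dnmt3a against MxCre and in Dnmt3a;Tnfr1KO against Dnmt3a, 24 of 26 and 29 of 33 had a position, and 0 of these lay in this window. Around Tnfrsf1a (chr6:125349723-125362483) 113 tested genes lay within 12 Mb (1.34%), and 0 of the 29 placed genes called in the Tnfr1KO-labelled mice were among them. Lag3 (chr6:124904359-124912434), 1 of the 24 placed genes called in Dnmt3a against MxCre, lay in this window, in a comparison in which neither group carries a receptor knockout label.

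Gm47283 was at 205, 431, 279 and 321 CPM in Tnfr2KO mice, above every Dnmt3a mouse (60.9 to 81.2 CPM), and the log2 fold change was 2.08 (SE 0.22, edgeR adjusted p = 3.15e-05). It was kept in 8 of 8 fits that left out a library. In Tnfr1KO-labelled mice it was at 119, 205 and 270 CPM (log2 fold change 1.43, SE 0.24, adjusted p = 0.00411). In Gata2-positive cells of the Tnfr2KO mice it changed by 1.93 and Zfp990 by 6.81 in the same direction.

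Elane, the neutrophil elastase gene, was at 1020, 356, 536 and 357 CPM in Tnfr2KO members against 51.5, 71.1, 190 and 101 CPM in Dnmt3a members. The groups did not overlap, and the log2 fold change was 2.40 (SE 0.46, edgeR adjusted p = 0.0182). Prtn3, its neighbour on chromosome 10, was at 1160, 749, 1050 and 682 CPM against 216, 380, 590 and 411 CPM (log2 fold change 1.18, SE 0.22, edgeR adjusted p = 0.0182). Both directions turned in members chosen after thinning, a fit without Dnmt3a replicates 1 and 2, with log2 changes of -1.76 for Elane (edgeR adjusted p = 0.330) and -0.77 for Prtn3 (adjusted p = 0.369). Of the 11 tested genes of the neutrophil progenitor list, these were the 2 called; the list's median log2 change was 0.58, and its summed level was 3372 to 5795 CPM against 1298 to 3634 CPM.

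The Elane transcripts sat in few cells. Of the 3782 Elane UMIs in Tnfr2KO members, 82.1% were in 30 of the 518 cells, each with 10 or more. Predicted doublets, which numbered 6, 5, 2 and 5 in these libraries, held 86.0%, 79.5%, 42.8% and 66.5% of the UMIs. Without them Elane fell from unscaled levels of 946, 343, 517 and 349 CPM to 157, 78.1, 311 and 124 CPM, against 60.1, 69.7, 120 and 113 CPM in Dnmt3a members, and the groups overlapped. The fit without predicted doublets gave a log2 change of 0.96 (SE 0.38, edgeR adjusted p = 0.370) for Elane and 0.54 (SE 0.23, adjusted p = 0.402) for Prtn3, so neither call held. Each call was also lost in 3 of 8 fits with a library left out, among them the fit without replicate 1 of Tnfr2KO (adjusted p = 0.110 for both). Ckm (3.29, adjusted p = 0.000101), Zfp990 and Gm47283 (2.06, adjusted p = 4.91e-05) remained called in that fit.

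**Figure D5:**
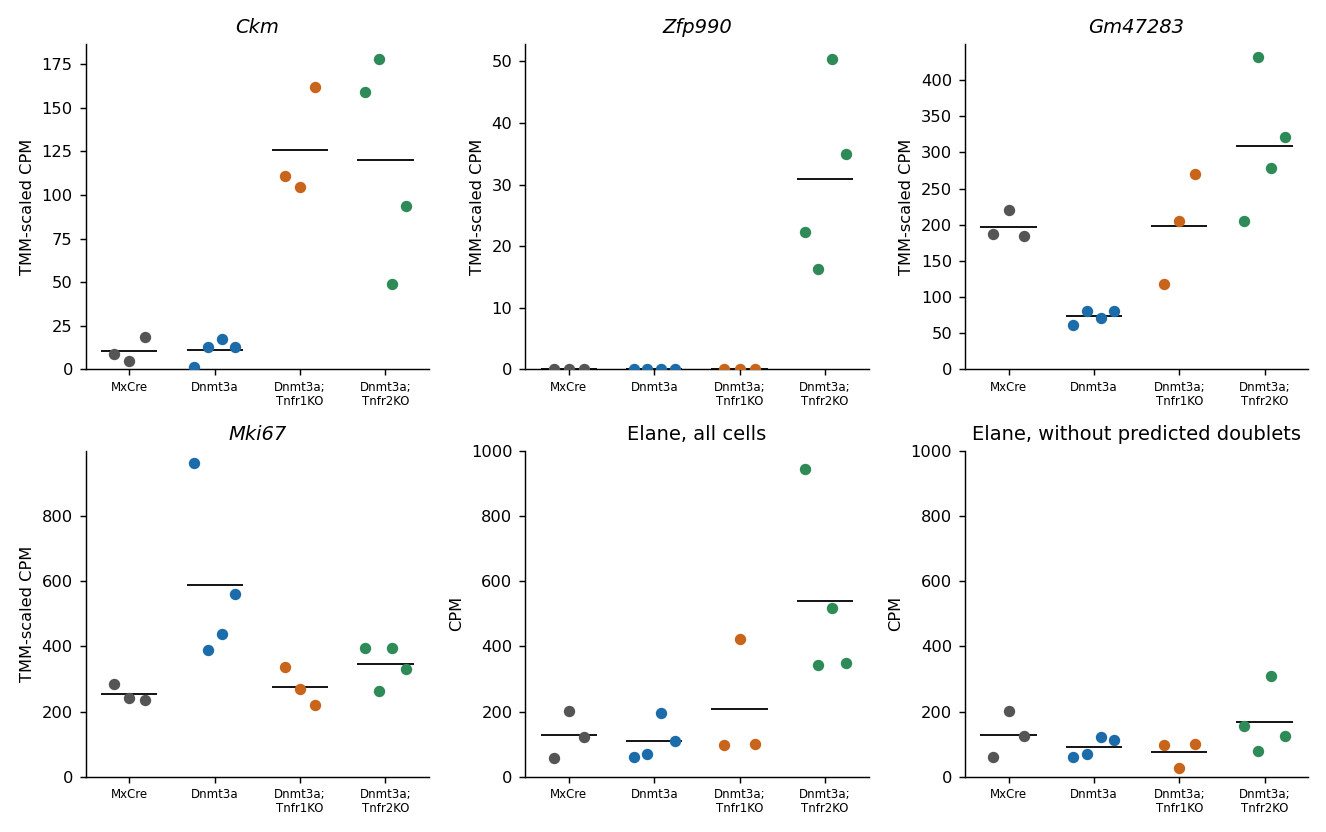
Levels per library in the members (CPM; TMM-scaled in the first 4 panels, unscaled in the 2 Elane panels), with 1 point per mouse and the group mean as a line. Ckm is high in both receptor knockout genotypes, Zfp990 only in Dnmt3a;Tnfr2KO, Gm47283 is low in Dnmt3a, Mki67 is highest in Dnmt3a, and the Elane difference shrinks from 946 to 157 CPM in the highest mouse once predicted doublets are left out.

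Genes of the lineage's own machinery were read as lists. Without the genes that chose the cells, the test covered 13 FceRI genes, 22 transcription factors, 15 granule and amine storage genes and 8 lipid mediator genes. It also covered 13 genes of the cytokine receptor list and 16 surface molecules. Of all these genes, 0 were called in each of the 4 comparisons. Since 0.302%, 0.384%, 0.43% and 0.0116% of all genes were called, 0 calls in lists of this size are near the background. Unadjusted p was below 0.05 for 983, 888, 956 and 299 of all 8601 genes. For Dnmt3a against MxCre the lists' median log2 changes were -0.01, 0.06, -0.06, 0.04, 0.18 and -0.07 in that order. For Dnmt3a;Tnfr1KO against Dnmt3a they were 0.12, -0.07, 0.32, 0.20, -0.02 and 0.15, and for Dnmt3a;Tnfr2KO against Dnmt3a -0.05, -0.10, 0.03, 0.10, -0.06 and 0.01. For Dnmt3a;Tnfr2KO against Dnmt3a;Tnfr1KO they were -0.18, -0.07, 0.01, -0.16, -0.08 and -0.08. Without Dnmt3a;Tnfr1KO replicate 1 these last medians were -0.18, -0.23, -0.15, -0.02, 0.03 and -0.01. Medians over all tested genes were 0.01, -0.01, -0.01 and -0.00. In Dnmt3a;Tnfr1KO against Dnmt3a, 11 of the 13 FceRI genes (84.6%) and 11 of the 15 granule genes (73.3%) had higher fitted levels, against 49.0% of all genes tested. In Dnmt3a against MxCre, 10 of 13 genes of the cytokine receptor list did (76.9%, against 51.4%). In both comparisons genotype and the library division cannot be told apart. Whole lists, with the genes that chose the cells, were also summed per mouse. The FceRI list ran from 1345 to 1400 CPM in Tnfr1KO-labelled and 1116 to 1477 CPM in Dnmt3a mice. The granule list ran from 4533 to 5721 and 3076 to 5696 CPM, so both overlapped. The cytokine receptor list ran from 907 to 1125 CPM in Dnmt3a and 785 to 886 CPM in MxCre mice. The fit can miss moderate changes. In counts simulated for all 14 libraries from mean levels, 69% of 2-fold and 99% of 4-fold changes between Dnmt3a and MxCre were recovered. The changed genes had means of at least 10 CPM and the simulation held no library division, so these shares do not cover lower genes or the division.

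Lists for inflammation and for other cells were read in the same way, against the same shares called over all genes. Of 22 tested NF-kB genes 0 were called in any comparison, with medians of -0.23, 0.44 and -0.00 for Dnmt3a against MxCre, Dnmt3a;Tnfr1KO and Dnmt3a;Tnfr2KO against Dnmt3a, and -0.36 for Dnmt3a;Tnfr2KO against Dnmt3a;Tnfr1KO. Both medians that involve Dnmt3a;Tnfr1KO rested on its replicate 1, the mouse with high Egr1, in which the list summed to 2768 CPM beside 763 and 858 CPM in the other 2 mice. Without it they were -0.13 and 0.05, over 25 genes tested. The 26 tested interferon response genes had medians of -0.19, 0.18 and -0.01 with 0 called. The 14 tested erythroid genes had medians of 0.69, -0.73 and -0.95 with 0 called. Without Dnmt3a;Tnfr1KO replicate 1 the second median was -1.36, over 16 genes tested. The erythroid list's summed level ran from 642 to 5928 CPM over the Dnmt3a mice, against 538 to 1456 CPM in MxCre mice. In the Dnmt3a mouse with the highest hemoglobin, 1 predicted doublet held 2365 of 2765 UMIs of Hbb-bs. The mast cell list had summed levels of 170 to 1021 CPM in MxCre, 90.9 to 722 CPM in Dnmt3a, 148 to 1585 CPM in Tnfr1KO-labelled and 37.4 to 314 CPM in Tnfr2KO mice, with 0 of 4 tested genes called. The groups overlapped, and the highest libraries of these groups held 15, 8, 6 and 8 of the Cma1 cells.

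Whether the genotype acted differently in members than in Gata2-positive cells without Ms4a2 and Fcer1a was tested directly, with both sums of each mouse in 1 model. In Dnmt3a against MxCre 7 of 11923 genes differed (0.0587%), all with a lower log2 change in members: Cebpa, Cd52, Idh1, Gm20342, Pgam1, Calr and P4hb. Cebpa changed by a log2 value of -0.30 in members and 0.92 in Gata2-positive cells, a difference of -1.25 (edgeR adjusted p = 0.0484). In the Gata2-positive cells Cebpa was at 22.5, 23.97 and 16.5 CPM in MxCre mice and 24.6, 33.6, 42.7 and 58.6 CPM in Dnmt3a mice. The granulocyte genes Mpo (771, 1007 and 609 CPM against 615, 885, 2125 and 2425 CPM) and Elane (588, 812 and 372 CPM against 408, 653, 1414 and 1346 CPM) were highest in the same 2 Dnmt3a mice as Cebpa, and their part in this difference was not tested. Calr, a chaperone of the endoplasmic reticulum, changed by -0.19 and 0.60 (difference -0.77, adjusted p = 0.0425), and the disulfide isomerase gene P4hb by -0.31 and 0.46 (difference -0.76, adjusted p = 0.0425). None of these changes passed the test within members, where adjusted p ran from 0.314 to 0.880. In the other 3 comparisons 0 genes differed by edgeR, with 685, 474 and 464 genes at an unadjusted p below 0.05. The changes of Ckm, Zfp990 and Gm47283 in Tnfr2KO mice gave an adjusted p of 1 for a difference between the cell sets.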

How the data were processed

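The authors deposited, for each of 14 libraries, a matrix of raw UMI counts for 32285 genes (10x 3' chemistry version 3.1, per the labels' protocols). The submitters' processing notes name bcl2fastq 2.20.0.422, Cell Ranger 6.0.0 and the build mm10 (GRCm38). Depth per library is given with the results.

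From the deposited counts, kept cells, members and comparison sets were chosen as the results state, and UMIs were summed per library. edgeR 4.0.16 (R 4.3.3) fitted the 4 genotypes in 1 quasi-likelihood model with TMM scaling and filterByExpr, which left 8601 genes; tests were two-sided. Shares were compared by exact permutation of mice (scipy 1.17.1). DESeq2 1.42.0 served as an alternative. Doublets were predicted with simulated cell pairs (2000 variable genes, 30 components, 0.8% per 1000 cells; scikit-learn 1.9.0) and were kept unless stated. The edgeR script was tested on simulated data: of 177 calls among 8418 genes, 9 were false. The members, the 26 gene lists and the comparison sets were chosen with earlier results of these data known.

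Named genes are the 10 called genes of largest change in each direction whose groups did not overlap and whose mean reached 10 CPM in 1 of them, and called members of a list with that mean. Markers of the rule, Tnfrsf1a, Tnfrsf1b, Dnmt3a and Tnf were always read, and for members against other cells the lists and the 20 genes outside them with the highest fold (mean at least 50 CPM, 10 CPM added to both levels). Pusl1, Hbb-bs, the genes that tested different between cell sets and those called only with the library division in the model were named after their values were seen. Positions come from NCBI's RefSeq annotation of GRCm38, matched by symbol for 48 of 55 genes. The alternatives tried were other scaling, filters, member cells and libraries, each library left out and a replicate block, and their effect is given in the closing section.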

Additional observations from a re-analysis of the deposited data

Results flagged for a closer look

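Of 67 groups of 4 mice tested for a single extreme library, 6 had one, and chance gives about 1 in 20. All 6 were the highest library of the Dnmt3a group: Rps29 at 3971 CPM and Rps28 at 3121 CPM in replicate 2, Egr1 at 70.3 CPM in replicate 3, and Kcnq1ot1 at 683 CPM, Slc18a2 at 149 CPM and the small membrane protein gene Smim27 at 41.0 CPM in replicate 1. For 7 genes the change from MxCre to Dnmt3a differed between members and Gata2-positive cells without Ms4a2 and Fcer1a. The differences of the log2 changes were -0.95 for Gm20342, -1.07 for Idh1, -1.23 for Cd52, -1.25 for Cebpa, -0.77 for Calr, -0.76 for P4hb and -0.93 for Pgam1. Against all other kept cells in place of Gata2-positive cells, the difference was -0.61 for Cebpa (edgeR adjusted p = 0.341), and it remained below the threshold for Gm20342 and P4hb (adjusted p = 0.0230 for both). In cells chosen after thinning, the calls of Gm20342 (-0.84, adjusted p = 0.0511) and Idh1 (-0.62, adjusted p = 0.544) were lost and those of the other 5 genes were kept.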

How the results depend on the processing

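Counts of called genes depended strongly on the settings, and the cause was not tested. For Dnmt3a against MxCre, Dnmt3a;Tnfr1KO against Dnmt3a, Dnmt3a;Tnfr2KO against Dnmt3a and Dnmt3a;Tnfr2KO against Dnmt3a;Tnfr1KO the reported counts were 26, 33, 37 and 1. DESeq2 called 92, 85 and 85 in the first 3, and no filter on low counts gave 217, 229, 245 and 69. Members with Mcpt8 and Pf4 at 0 gave 0 (618 genes at an unadjusted p below 0.05), 14 and 12 in the first 3, without Dnmt3a replicate 1, which kept under 20 cells. Members chosen after thinning gave 20 in the second and 0 in the fourth (310 unadjusted), without Dnmt3a replicates 1 and 2. Removal of predicted doublets gave 45 in the first and 22 in the third, a fit of only the 2 groups compared 6 in the third and 2 in the fourth, and removal of Cma1 cells 2 in the fourth. The term for the library division gave 4, 2 and 8, and libraries of 1 side of it 6 in the third and 13 in the fourth. Leaving out 1 library gave 0 to 64, 11 to 62, 8 to 85 and 0 to 1; the first was 0 without MxCre replicate 2, Dnmt3a replicate 3 or Dnmt3a replicate 4. RLE scaling gave 34, 35, 37 and 1.

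Replicate numbers are shared by the groups, but same-numbered libraries deviated together in 1 of 13 pairs (r from -0.20 to 0.15), so they were not taken as pairs. A replicate block gave 30, 21, 34 and 2 called genes and differences of shares of -0.0870, -0.290, 0.526 and 0.193 points. The differences of shares ran from -0.496 to 0.00757, -0.290 to 0.153, 0.109 to 0.730 and 0.193 to 0.816 points with 1 library left out. That of Dnmt3a;Tnfr1KO from Dnmt3a was 0.0632 after thinning and 0.0214 under a stricter cell filter. Genes called for a difference of the change between cell sets numbered 34 in Dnmt3a against MxCre with all other kept cells as the comparison, and 108, 27, 19 and 1 in the 4 comparisons after thinning.

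Single genes that turned direction were few. S100a8 was at 0.32 without MxCre replicate 2 (-6.50 to 0.32 over all left-out libraries), and Elane at -1.76 and Prtn3 at -0.77 in members chosen after thinning. With the division in the model Hist1h2ap was at -0.92 and Gm10076 at -0.11, but the division was itself drawn on Hist1h2ap levels. The Dnmt3a transcript, near 0 in Dnmt3a against MxCre, was at 0.041 with the replicate block, 0.043 without Cma1 cells, 0.31 with the division in the model, and -0.16 to 0.11 with 1 library left out (above 0 without MxCre replicates 2 or 3 or Dnmt3a replicates 2 or 4). It was at 0.19 for Dnmt3a;Tnfr1KO after thinning, and for Dnmt3a;Tnfr2KO at 0.59 after thinning, 0.056 with Mcpt8 and Pf4 at 0 and -0.26 to 0.0035 with 1 library left out (above 0 without Dnmt3a replicate 1). Of the other values of single genes, 613 kept direction and side of the threshold and 308 kept direction only. Changes below about 2-fold, and genes of a few UMIs per library, lie at the limit of this depth.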

Other observations

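In 9 of 14 libraries 1 member cell with 10 or more UMIs held over 50% of the UMIs of Elane (1 library), S100a8 (3 libraries) or Hbb-bs (6 libraries), with shares from 51.9% to 99.4%. In the Tnfr1KO-labelled mouse with the highest Elane, 1 predicted doublet held 435 of 464 UMIs (93.8%). In replicate 1 of MxCre 1 cell held 871 of 971 UMIs of Hbb-bs (89.7%), and in replicate 1 of Dnmt3a;Tnfr1KO 1 cell held 258 of 271 (95.2%).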
